A study of Rattus norvegicus with 6 samples.

Results

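The miRNAs described here are those regarded as typical of epithelial cells: the 5 members of the miR-200 family (rno-miR-200a-3p, rno-miR-200b-3p, rno-miR-200c-3p, rno-miR-141-3p and rno-miR-429), rno-miR-203a-3p and rno-miR-205. They were chosen by name, with earlier results of these data known, and make up 7 of the 763 mature rat miRNAs in the deposited count table. The question was whether miR-203a-3p differed between the groups alone or together with the other epithelial miRNAs. Small RNA was sequenced from plasma exosomes, the small membrane vesicles that cells release into blood, in 3 libraries of control rats (Control-exosome, C-exo) and 3 libraries of rats with remote ischemic preconditioning (RIPC-exosome, R-exo). All rats were male Sprague-Dawley rats aged 7 to 8 weeks. In the RIPC rats, rubber bands stopped and restored the blood flow of both hind limbs in 4 cycles of 5 min of ischemia and 5 min of reperfusion, and in both groups blood was taken from the abdominal aorta 48 h later, under anesthesia. The control rats had no RIPC. The labels also call the samples of both groups untreated, and they do not say whether a library came from 1 rat or from several.

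miRNAs are short RNAs that guide repressor proteins to messenger RNAs, mainly through the seed, the bases near the 5′ end that pair with the target. The miR-200 family represses the transcription factors ZEB1 and ZEB2 and so keeps epithelial cells from turning into mesenchymal cells. miR-203 limits the self-renewal of skin progenitors by repressing p63, and miR-205 is abundant in the basal layer of stratified epithelia. Plasma exosomes carry RNA from many tissues, and more vesicles from a cell type cannot be told apart from more of a miRNA in each vesicle in such libraries.

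The sequences are shown because the family has only 2 seeds, which differ by 1 base, so that the counts of its members can be compared by seed as well as by gene. In the sequences from RefSeq (assembly GRCr8), 4 of the 7 members had a mature entry and 7 of 7 had a stem-loop entry. The capitals mark the seed, bases 2 to 8 of the mature miRNA. The 4 mature sequences of members are given 5′ to 3′, with miR-203b-3p, no member but from the opposite strand of the miR-203 locus, printed beneath miR-203a-3p.
miR-203a-3p: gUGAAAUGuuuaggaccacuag
miR-203b-3p: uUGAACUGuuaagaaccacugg
miR-205: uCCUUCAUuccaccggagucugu
miR-141-3p: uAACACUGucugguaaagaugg
miR-200c-3p: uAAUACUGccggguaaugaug

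For the other members the stem-loops are shown, each with its single match to the family seed in capitals. Mir200a held the seed of miR-141-3p, whereas Mir200b and Mir429 held that of miR-200c-3p.
Mir200a: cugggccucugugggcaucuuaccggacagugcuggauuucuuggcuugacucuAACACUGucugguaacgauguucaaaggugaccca
Mir200b: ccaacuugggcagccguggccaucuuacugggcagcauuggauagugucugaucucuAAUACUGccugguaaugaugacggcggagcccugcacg
Mir429: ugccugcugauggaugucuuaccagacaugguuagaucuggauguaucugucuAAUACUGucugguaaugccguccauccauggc

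Over the first 21 bases, miR-200c-3p and miR-141-3p were identical at 17. The 4 differences, counted from the 5′ end with the base of miR-200c-3p first, were U4C, C9U, G11U and U17A, and U4C is the one inside the seed. Of the pairs with the same seed, some were closer. Counted from the base before the seed, miR-141-3p and the Mir200a stem-loop differed over 21 bases by A17C alone, and miR-200c-3p and the Mir200b stem-loop by G11U alone, whereas miR-200c-3p and the Mir429 stem-loop differed at 4 bases. The mismatch rule of the authors' counting is not given in the sources used here, so the split of counts between miR-141-3p and the far more abundant miR-200a-3p, and between miR-200c-3p and miR-200b-3p, is uncertain, and with it the ratio between the clusters. A sum over the whole family, or over a seed group, does not depend on that split.

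The members come from 4 places in the genome. In GRCr8 the stem-loops of miR-200b, miR-200a and miR-429 lie within 1908 bases on the minus strand (chr5:171929682-171931589), inside the annotated spans of Ttll10 and of the long noncoding RNA LOC106182250. The stem-loops of miR-200c and miR-141 lie within 509 bases (chr4:159209525-159210033, minus strand), between Phb2 and Ptpn6. Mir203 (chr6:137020705-137020801, plus strand) lies between Aspg and Kif26a, and all of its 97 bases overlap Mir3545, the source of miR-203b, on the minus strand. Mir205 (chr13:107564535-107564642, minus strand) lies next to Camk1g.

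The libraries held between 5484209 and 7531737 counts, and 404 of the 598 miRNAs with any count passed the filter on low counts, all 7 members among them. The lowest count of a member was 77, for miR-141-3p in C-exo replicate 1, and the highest was 36409, for miR-203a-3p in R-exo replicate 1. Levels are given as TMM-normalized CPM, counts scaled to library sizes that had been adjusted with edgeR's TMM factors. A mature miRNA is read whole, so that no correction for length was made, but reads of different miRNAs are not ligated and amplified equally. C-exo replicate 3 stood apart: for 331 of the 404 tested miRNAs (81.9%) its log2 CPM lay closer to R-exo, on average, than to the other C-exo libraries. The same held for 5 of the 7 members, the exceptions being miR-203a-3p and miR-205. The median SD of log2 CPM over the tested miRNAs was 0.81 in C-exo and 0.39 in R-exo. The members' fold changes are therefore given with and without this library. It was singled out by its closeness to R-exo, so leaving it out tends to widen the group differences by that choice. All p-values without it are descriptive only.

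miR-203a-3p was the most abundant of the members and ranked 46 among the miRNAs by mean CPM. Its level in CPM was 1316, 1451 and 2143 in replicates 1, 2 and 3 of C-exo, against 4483, 3121 and 3638 in those of R-exo. All R-exo libraries were above all C-exo libraries, and C-exo replicate 3 was the highest of its group. The mean was 1637 ± 443 CPM in C-exo and 3747 ± 687 CPM in R-exo (mean ± SD, n = 3 each), a fold change of 2.29. The log2 fold change was 1.19 (SE 0.42), with an adjusted p of 0.46 in the quasi-likelihood test of edgeR, Benjamini-Hochberg adjusted over the 404 miRNAs. The exact two-sided permutation test of the levels gave p = 0.1, the smallest that 3 against 3 libraries allows. miR-203a-3p was the 1 member that met the study's criterion, more than a 2-fold difference at an unadjusted p under 0.05. It was among the miRNAs that the study had itself called higher in R-exo from these same libraries. Meeting it here thus repeats that selection and is no independent support for the criterion. Among all tested miRNAs 1.98% met it with a higher level in R-exo, 8 miRNAs, and 30 met it with a lower level. With other scalings the calls were 12 higher and 25 lower (RLE size factors) or 18 higher and 15 lower (library size only). No miRNA had an adjusted p under 0.05 in edgeR's quasi-likelihood test on the 6 libraries, whereas 38 had an unadjusted p under 0.05, and DESeq2 and limma-voom gave 0 at that adjusted p and 50 unadjusted each. Without C-exo replicate 2, R-exo replicate 1 or R-exo replicate 3, miR-203a-3p no longer met the criterion, with log2 fold changes of 1.16, 1.11 and 1.17.

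The miR-200 family had positive log2 fold changes in all 5 members, between 0.67 and 1.06, and none met the criterion in this test of the 6 libraries. miR-429 met it with DESeq2 and with library size only, where 4.21% and 4.46% of all tested miRNAs met it with a higher level in R-exo. With limma-voom, miR-200a-3p, miR-429 and miR-141-3p met it, against 6.68% of all tested miRNAs. miR-200a-3p, the most abundant, ranked 65 and made up 72.7% ± 5.41 of the family's counts in C-exo and 75.4% ± 2.02 in R-exo. Its level was 426.5, 373 and 1309 CPM in the C-exo libraries and 1117, 1789 and 1345 CPM in the R-exo libraries. C-exo replicate 3 lay inside the range of R-exo, and the other C-exo libraries lay below it. The mean was 703 ± 526 CPM in C-exo and 1417 ± 342 CPM in R-exo, with a log2 fold change of 1.01 (SE 0.57, adjusted p = 0.50 in the quasi-likelihood test of edgeR, Benjamini-Hochberg adjusted) and an exact permutation p of 0.2.

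miR-429 and miR-200b-3p, from the same cluster, were lower in level. miR-429 measured 58.0, 35.2 and 118 CPM in the C-exo libraries and 113, 164 and 149 CPM in the R-exo libraries, so that C-exo replicate 3 again reached the range of R-exo. Its log2 fold change was 1.01 (SE 0.52), with an adjusted p of 0.47 in the quasi-likelihood test of edgeR, Benjamini-Hochberg adjusted, and an exact permutation p of 0.2. miR-200b-3p measured 101, 50.2 and 132 CPM in the C-exo libraries and 154, 150.2 and 146 CPM in the R-exo libraries. Its groups did not overlap, and its R-exo libraries lay close together (150.2 ± 3.99 CPM, against 94.5 ± 41.4 CPM in C-exo). The log2 fold change of miR-200b-3p was 0.67 (SE 0.46), with adjusted p = 0.51 in the quasi-likelihood test of edgeR, Benjamini-Hochberg adjusted, and the exact permutation test gave p = 0.1.

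miR-141-3p and miR-200c-3p, from the other cluster, were the least abundant members. miR-141-3p measured 17.3, 23.7 and 91.5 CPM in the C-exo libraries and 71.4, 125 and 80.5 CPM in the R-exo libraries. The C-exo libraries spread widely, and replicate 3 was above R-exo replicates 1 and 3. The log2 fold change was 1.06 (SE 0.65), with an exact permutation p of 0.3. miR-200c-3p measured 38.5, 12.8 and 65.4 CPM in the C-exo libraries and 53.2, 74.5 and 89.2 CPM in the R-exo libraries, and its groups overlapped through C-exo replicate 3. For this miRNA the log2 fold change was 0.89 (SE 0.59), with an exact permutation p of 0.2. For both, the adjusted p was 0.51 in the quasi-likelihood test of edgeR, Benjamini-Hochberg adjusted. Summed over its 5 members, the family measured 951 ± 667 CPM in C-exo and 1874 ± 401 CPM in R-exo (exact permutation p = 0.2), a log2 ratio of means of 0.98, or 1.72 without C-exo replicate 3.

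miR-205 had the smallest estimated fold change of the members. It measured 427, 224 and 217 CPM in the C-exo libraries and 507, 221 and 319 CPM in the R-exo libraries. The groups overlapped, and replicate 1 was the highest library in each of them. The mean was 290 ± 119 CPM in C-exo and 349 ± 145 CPM in R-exo, with a log2 fold change of 0.27 (SE 0.49) and an exact permutation p of 0.6. Without R-exo replicate 1 the log2 fold change was -0.0083.

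**Figure D1:**
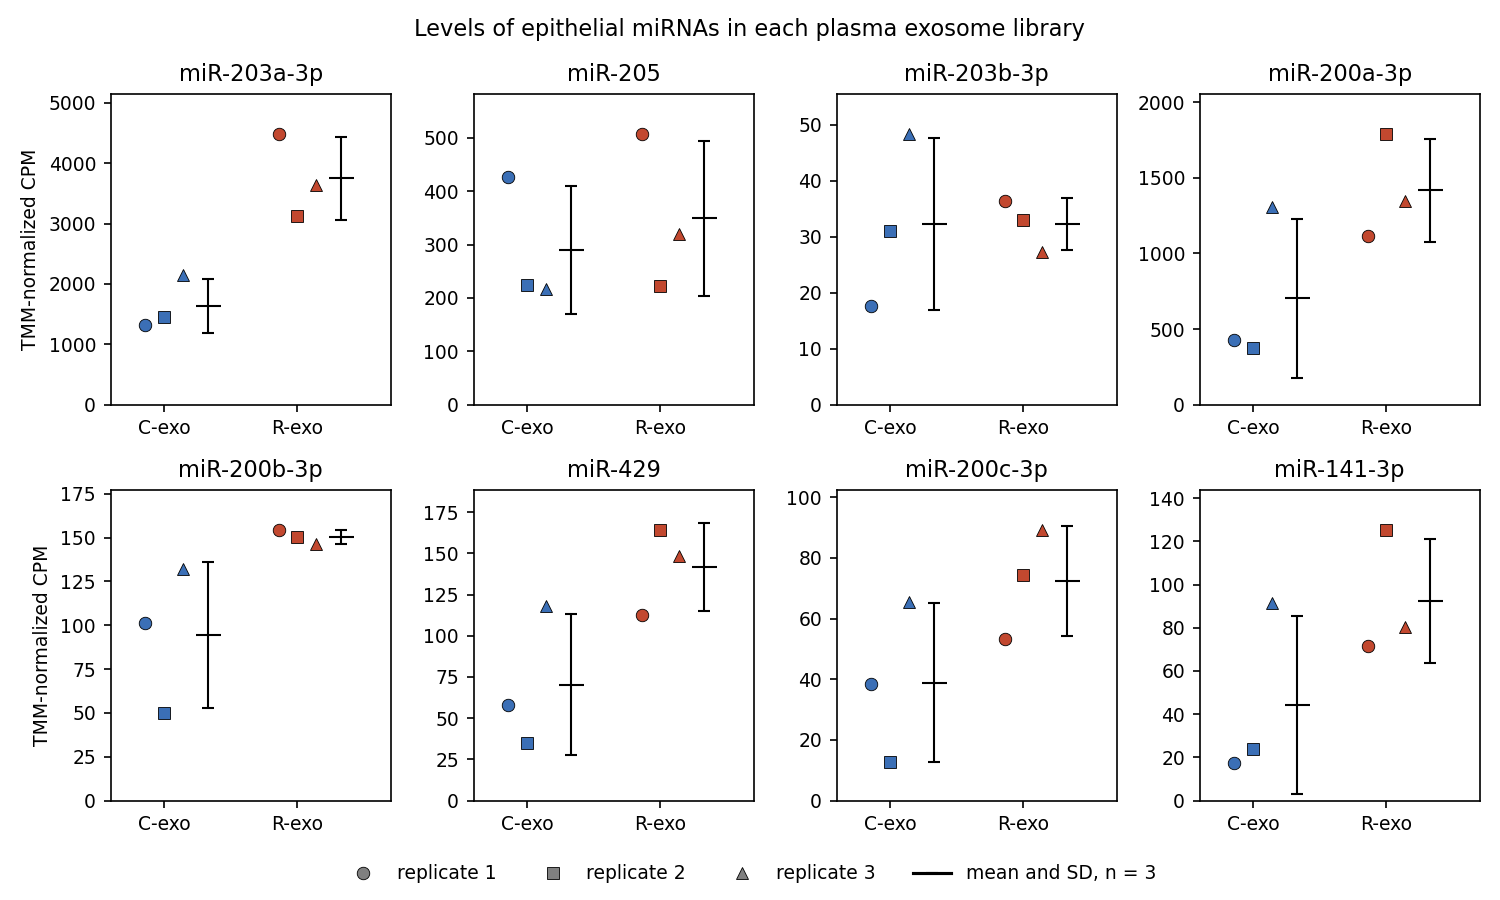
Levels of the 7 members and of miR-203b-3p in TMM-normalized CPM (vertical axes from 0) in each C-exo (blue) and R-exo (red) library, with the replicate numbers as symbols and the mean ± SD (n = 3) in black. For miR-203a-3p the C-exo libraries lie between 1316 and 2143 CPM, all below the lowest R-exo library at 3121 CPM, whereas for miR-200a-3p C-exo replicate 3, at 1309 CPM, lies within R-exo.

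In the order of the mean levels, miR-203a-3p was above miR-200a-3p in 6 of 6 libraries. miR-200a-3p was above miR-205 in 5 of 6, with nearly equal levels in C-exo replicate 1. miR-205 was above miR-200b-3p, and miR-429 was above miR-141-3p, in 6 of 6 libraries. miR-200b-3p was above miR-429 in 4 of 6 libraries, and miR-141-3p was above miR-200c-3p in 4 of 6, so these neighbours did not differ beyond their spread. The 7 members together took 0.272% ± 0.0969 of all counts in C-exo and 0.636% ± 0.101 in R-exo (mean ± SD, n = 3 each, exact permutation p = 0.1). Of the members' counts, miR-203a-3p alone made up 58.2% in C-exo and 62.5% in R-exo on average, so this total largely follows miR-203a-3p.

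Counted over the members, 7 of 7 had a log2 fold change above 0, against 48.8% of all tested miRNAs. A fold change over 2, whatever its p, was found for 4 of 7 members, miR-203a-3p, miR-141-3p, miR-200a-3p and miR-429, against 10.1% of all tested miRNAs. The groups did not overlap, with R-exo higher, for 2 of 7 members, miR-203a-3p and miR-200b-3p, against 4.95% of all tested miRNAs. The median log2 fold change was 1.01 for the members and -0.05 for all tested miRNAs. All 7 remained above 0 under each other scaling, where the median of all tested miRNAs was between -0.06 (upper quartile) and 0.10 (library size only).

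Without C-exo replicate 3, the estimated fold changes of the miR-200 family were above that of miR-203a-3p in 4 of its 5 members, each by less than the SEs of the compared estimates added together. The log2 fold change was 2.18 (SE 0.47) for miR-141-3p, 1.83 (SE 0.43) for miR-200a-3p, 1.62 (SE 0.45) for miR-429 and 1.51 (SE 0.52) for miR-200c-3p, against 1.45 (SE 0.40) for miR-203a-3p. It was 1.0 (SE 0.45) for miR-200b-3p and 0.11 (SE 0.47) for miR-205. In the quasi-likelihood test of edgeR, Benjamini-Hochberg adjusted over 422 miRNAs, 5 of the 7 members had an adjusted p under 0.05, against 17.3% of all tested miRNAs with a higher level in R-exo. These adjusted p-values are descriptive, since C-exo replicate 3 was left out for its closeness to R-exo. The adjusted p was 0.0073 for miR-141-3p, 0.0089 for miR-200a-3p, 0.017 for miR-203a-3p, 0.018 for miR-429 and 0.042 for miR-200c-3p, and it was 0.095 for miR-200b-3p and 0.87 for miR-205 (edgeR, 2 C-exo and 3 R-exo libraries). The number of miRNAs that met the study's criterion was 182 without this library and 38 with it, so the family's values share this dependence with much of the table. In this set of libraries 6 of the 7 members met the criterion, all but miR-205, against 23.7% of all tested miRNAs with a higher level in R-exo. Leaving out any other library gave no member an adjusted p under 0.05 in the same edgeR test. The family's log2 fold changes were lowest without another control library, namely 0.41 for miR-200b-3p, 0.52 for miR-200c-3p, 0.73 for miR-429 and 0.75 for miR-200a-3p without C-exo replicate 2, and 0.68 for miR-141-3p without C-exo replicate 1.

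**Figure D2:**
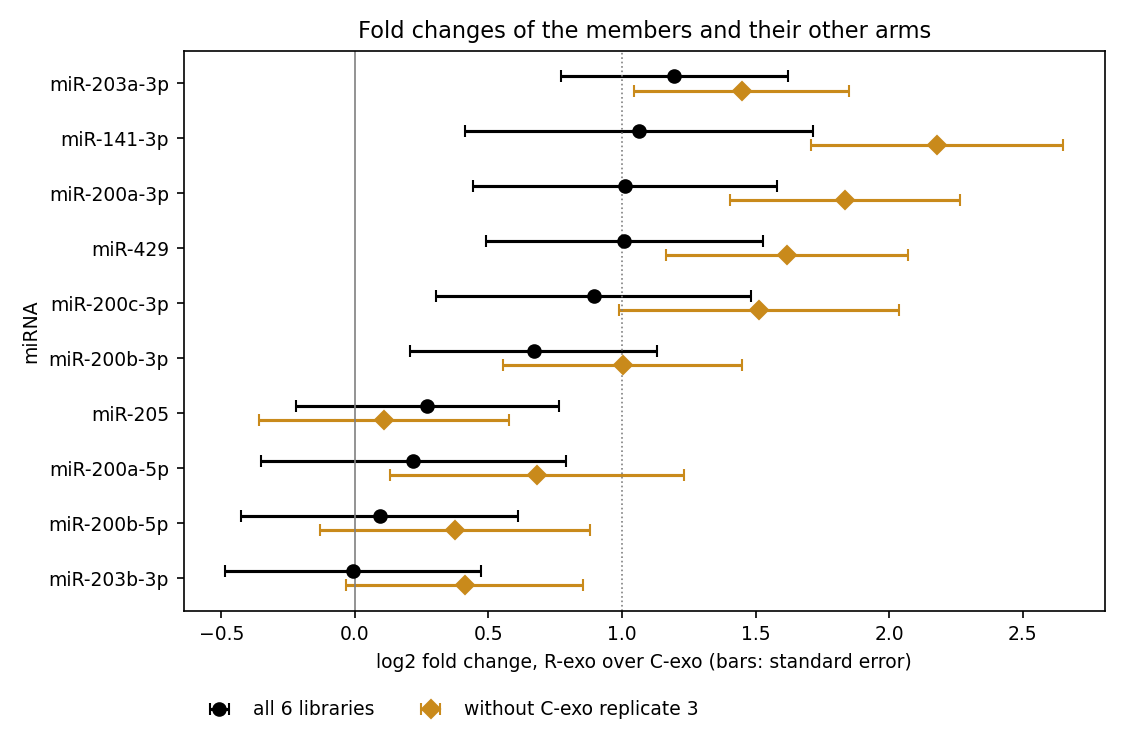
Log2 fold changes (R-exo over C-exo, horizontal axis) of the 7 members and 3 miRNAs from the same stem-loops or locus, with the SE as bars, from all 6 libraries (black circles) and without C-exo replicate 3 (orange diamonds). The solid line marks no change and the dotted line a fold change of 2. The shift between the estimates is widest for miR-141-3p (1.06 to 2.18) and small for miR-205 (0.27 to 0.11).

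Whether miR-203a-3p differed apart from the family was tested directly with the ratio of their counts within each library, which needs no scaling between libraries. There were 2.05, 2.93 and 1.25 counts of miR-203a-3p per count of the summed family in C-exo and 2.97, 1.35 and 2.01 in R-exo. The groups covered nearly the same range. The mean log2 ratio was 0.97 ± 0.62 in C-exo and 1.01 ± 0.57 in R-exo, a difference of 0.036 (SE 0.48), with an exact permutation p of 0.9 (adjusted p = 0.9 over 5 ratios, exact test). No difference was thus detectable, and with this SE the data leave room for a difference in either direction. Without C-exo replicate 3 the difference in log2 ratio was -0.29.

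The ratio of miR-203a-3p to miR-205 was 3.08, 6.47 and 9.89 in C-exo and 8.84, 14.1 and 11.4 in R-exo. The groups overlapped through C-exo replicate 3, and the log2 ratio differed by 0.95 (SE 0.53; exact permutation p = 0.2, adjusted p = 0.875), or by 1.33 without that library and by 0.49 without C-exo replicate 1. The log2 ratio of miR-205 to the family was -1.57 ± 1.26 in C-exo and -2.49 ± 0.90 in R-exo (exact permutation p = 0.4, adjusted p = 0.875). The difference of -0.91 had an SE of 0.89, and it was between -1.62 and -0.42 with 1 library left out.

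The proportions of the members within the family did not differ detectably between the groups. The log2 ratio of the 200b-200a-429 cluster to the 200c-141 cluster was 3.45 ± 0.18 in C-exo and 3.38 ± 0.10 in R-exo, a difference of -0.070 (SE 0.12; exact permutation p = 0.7, adjusted p = 0.875). Its spread was the smallest of the 5 ratios. The clusters lie on different chromosomes, but the split of counts between their near-identical members is uncertain, and with it this ratio and its spread. The log2 ratio of the 200b-200c-429 seed group to the 200a-141 seed group was -1.78 ± 0.53 in C-exo and -2.03 ± 0.24 in R-exo (exact permutation p = 0.6, adjusted p = 0.875), a difference of -0.25 that was 0.054 without C-exo replicate 1. The groups overlapped in both ratios.

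The other products of the same stem-loops were measured too. Of 11 other arms and partner miRNAs, 7 were in the table, 5 had counts and 3 were tested. miR-203b-3p, from the opposite strand of the miR-203 locus, measured 17.7, 31.0 and 48.4 CPM in the C-exo libraries and 36.4, 33.0 and 27.3 CPM in the R-exo libraries, with a log2 fold change of -0.0059 (SE 0.48) that was slightly above 0 with RLE size factors (0.046) and with library size only (0.13). The R-exo libraries of miR-203b-3p all lay within the range of C-exo. There were 74.4, 46.8 and 44.3 counts of miR-203a-3p per count of miR-203b-3p in C-exo and 123, 94.5 and 133 in R-exo, without overlap. This log2 ratio, which was added after the values had been seen, differed by 1.11 (SE 0.28), with an exact permutation p of 0.1.

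The 5p arms of the family were scarce. miR-200a-5p had a log2 fold change of 0.22 (SE 0.57) and miR-200b-5p one of 0.09 (SE 0.52), and the groups overlapped for both. There were 39.6, 91.2 and 85.2 counts of miR-200a-3p per count of miR-200a-5p in C-exo and 93.5, 126 and 150 in R-exo. For the arms of miR-200b this ratio was 4.80, 4.90 and 5.22 in C-exo and 8.30, 5.26 and 11.1 in R-exo. Neither ratio overlapped between the groups (exact permutation p = 0.1 for each, both examined after the values had been seen). miR-141-5p had at most 8 counts in a library and miR-203a-5p at most 1, whereas miR-200c-5p and miR-203b-5p had 0 in every library, which allows a level of up to 0.672 CPM in the least deep library (3 counts, counting error only).

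**Figure D3:**
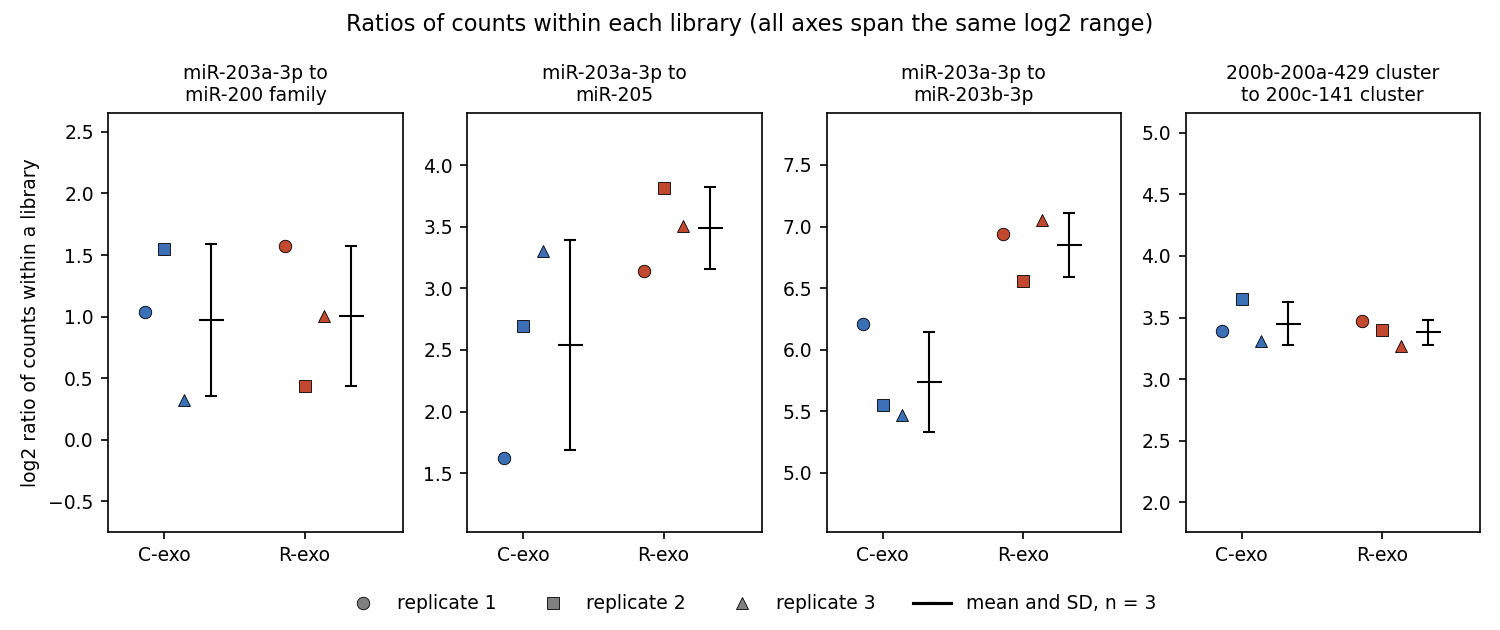
Log2 ratios of counts within each library (vertical axes, all spanning the same range) for miR-203a-3p to the summed miR-200 family, to miR-205 and to miR-203b-3p, and for the 200b-200a-429 cluster to the 200c-141 cluster, with replicate numbers as symbols and the mean ± SD (n = 3) in black. The ratio to the family covers nearly the same range in C-exo and R-exo (means 0.97 and 1.01), whereas the ratio to miR-203b-3p lies higher in every R-exo library than in any C-exo library.

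Other miRNAs known from epithelia were compared from a list of 15, of which 14 were in the table and 9 were tested. None of the 9 met the criterion, whereas 1.98% of all tested miRNAs met it with a higher level in R-exo. A log2 fold change above 0 was found for 5 of 9, against 48.8% of all tested miRNAs. These counts are close to the shares over all tested miRNAs. The median was 0.04, against -0.05 for all tested miRNAs, or 0.30 against -0.0014 without C-exo replicate 3. miR-192-5p, typical of gut, liver and kidney and ranked 6 by mean CPM, measured between 40969 and 51287 CPM in C-exo and between 45026 and 46922 CPM in R-exo, with a log2 fold change of -0.01 (SE 0.35), or -0.09 without C-exo replicate 3. miR-375-3p, known from endocrine and secretory epithelia, measured 5351, 2333 and 2541 CPM in the C-exo libraries and 1652, 2907 and 1683 CPM in the R-exo libraries, with a log2 fold change of -0.71 (SE 0.49), or -0.88 without C-exo replicate 3, and overlapping groups. miR-194-5p, whose genes are clustered with those of miR-192, measured 286, 323 and 1235 CPM in the C-exo libraries and 657, 1240 and 824 CPM in the R-exo libraries. Its log2 fold change was 0.56 (SE 0.62), and like most of the miR-200 family it had a C-exo replicate 3 within the range of R-exo. Without that library the log2 fold change of miR-194-5p was 1.58, with adjusted p = 0.018 in the quasi-likelihood test of edgeR, Benjamini-Hochberg adjusted. miR-182, of the miR-183 cluster, went from 0.45 to 1.60 (adjusted p = 0.027, also by edgeR). In that fit 17.3% of all tested miRNAs had an adjusted p under 0.05 with a higher level in R-exo. miR-34c-5p, known from ciliated epithelia, had groups without overlap (9.41, 14.98 and 16.2 CPM in the C-exo libraries, and 17.0, 25.6 and 20.4 CPM in the R-exo libraries). Over all tested miRNAs, 4.95% had groups without overlap and R-exo higher. The log2 fold change of miR-34c-5p was 0.63 (SE 0.45), or 0.79 without C-exo replicate 3. miR-182 and miR-34c-5p were named after their values had been seen, as was the rest of the tested list. That rest was miR-183-5p (0.27, or 0.74 without C-exo replicate 3), miR-184 (0.04, or -0.0046), miR-31a-5p (-0.22, or -0.24) and miR-204-5p (-1.12, or 0.30), whose groups overlapped.

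**Figure D4:**
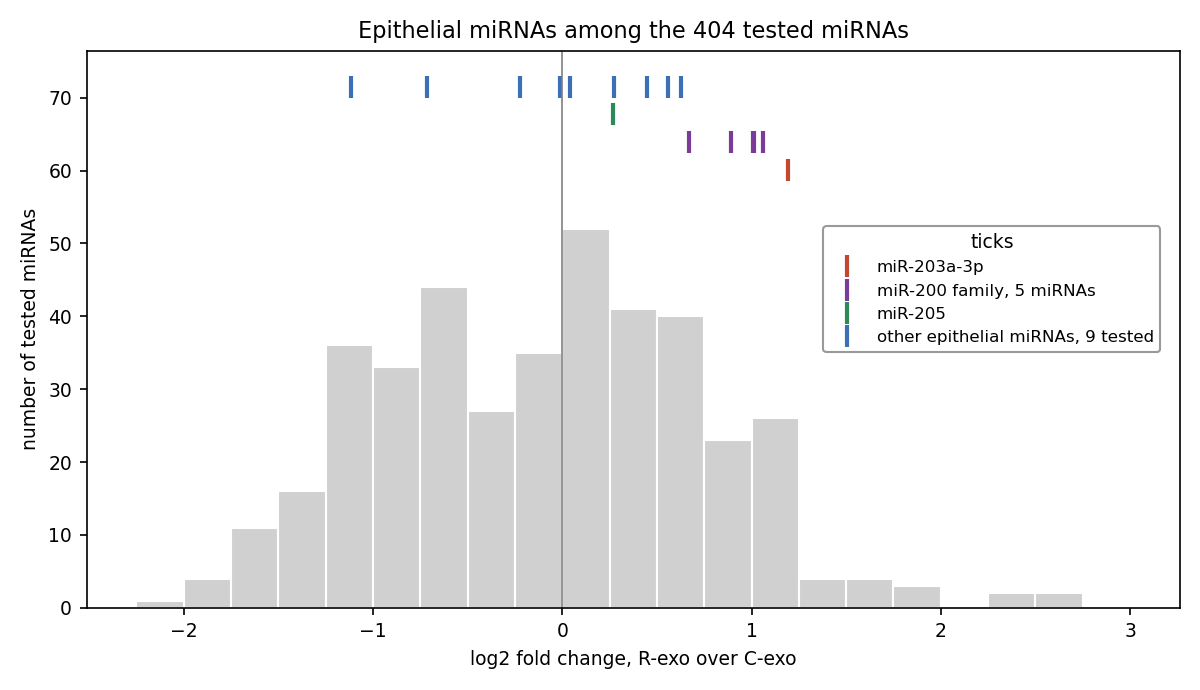
Distribution of the log2 fold changes (R-exo over C-exo, horizontal axis) of the 404 tested miRNAs, as the number of miRNAs per bin of 0.25. The ticks above mark miR-203a-3p (1.19), the 5 members of the miR-200 family (0.67 to 1.06, with miR-200a-3p and miR-429 both at 1.01), miR-205 (0.27) and the 9 other epithelial miRNAs, which lie on both sides of 0.

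The profile of miR-203a-3p over the 6 libraries was compared with that of every other tested miRNA by the root mean square difference of log2 CPM after centring, a description without a test. The nearest outside the 7 members were let-7d-5p (0.21), miR-301a-3p (0.30), miR-10b-3p (0.32), miR-19a-3p (0.34) and miR-144-3p (0.35), against a median of 0.93 over the other tested miRNAs. The other members lay farther from miR-203a-3p than these, from 0.43 for miR-200b-3p, through 0.47 for miR-429 and 0.51 for miR-200a-3p, to 0.71 for miR-205. All of them were nearer than that median. Because the 5 were picked as the nearest of all, nearly any miRNAs named beforehand would lie farther, so this order says little about the members. One of the 5, miR-301a-3p, measured only between 1.12 and 3.45 CPM. For the summed family the nearest were miR-1839-5p (0.21), miR-30e-5p (0.23) and miR-20a-5p (0.24), whereas miR-205 was at 1.0, as far as the median tested miRNA.

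Markers of other sources of plasma RNA differed between the libraries as well. For comparison, 1.98% of all tested miRNAs met the criterion with a higher level in R-exo, and 48.8% had a log2 fold change above 0. Without C-exo replicate 3, 17.3% had an adjusted p under 0.05 with a higher level in R-exo (edgeR). The 4 miRNAs of leukocytes (miR-142-3p, miR-142-5p, miR-150-5p and miR-155-5p) summed to 4218, 3131 and 20969 CPM in C-exo and to 11230, 26499 and 11151 CPM in R-exo, a sum carried mostly by miR-142-5p (2444, 2321 and 18749 CPM in C-exo). This sum, like that of the family, was low in C-exo replicates 1 and 2 and within the range of R-exo in C-exo replicate 3. The list did not share that pattern as a whole, since in C-exo replicate 3 miR-142-3p was below every R-exo library and miR-150-5p was above every one. All 4 had a log2 fold change above 0 and none met the criterion. Their median log2 fold change was 0.92, or 1.39 without C-exo replicate 3, where miR-142-5p went from 0.86 to 2.59 (adjusted p = 0.0053) and miR-155-5p from 1.05 to 1.89 (adjusted p = 0.014) in the quasi-likelihood test of edgeR, while miR-142-3p went from 0.97 to 0.90 and miR-150-5p from 0.03 to 0.50. The 2 miRNAs of smooth muscle (miR-143-3p and miR-145-5p) summed to between 11011 and 55677 CPM in C-exo and between 42830 and 88056 CPM in R-exo, and neither met the criterion. Without C-exo replicate 3, miR-143-3p went from 0.94 to 1.39 (adjusted p = 0.0497) and miR-145-5p from 0.33 to 0.19 (adjusted p = 0.76), both by edgeR. Of the 4 red cell miRNAs, miR-144-3p and miR-144-5p met it, with log2 fold changes of 1.07 and 1.63 (1.07 and 2.23 without C-exo replicate 3), while miR-486 had one of -1.07 (-1.35) and miR-451-5p one of 0.37 (0.84), and the 4 summed to between 69273 and 198074 CPM in C-exo and between 44536 and 74959 CPM in R-exo. Of the 3 platelet miRNAs, summing to between 19277 and 39124 CPM in C-exo and between 36345 and 41930 CPM in R-exo, miR-126a-3p, which is also abundant in endothelium, met it (1.34, or 2.0 without C-exo replicate 3), whereas miR-223-3p (-0.36, or -0.49) and miR-191a-5p (-0.47, or -0.38) did not. Of the 3 pancreas miRNAs, summing to between 5.38 and 20.6 CPM in C-exo and between 11.3 and 139 CPM in R-exo, miR-217-5p met it (2.30, or 3.10 without C-exo replicate 3), which rests on R-exo replicate 2. It measured 125 CPM in that library and 19.8 and 10.4 CPM in the other R-exo libraries, and without R-exo replicate 2 its log2 fold change was 0.55. The other pancreas miRNAs, miR-216a-5p and miR-216b-5p, were too scarce to be tested. The liver miRNA miR-122-5p, between 28293 and 67045 CPM in C-exo and between 28768 and 35621 CPM in R-exo, had a log2 fold change of -0.65, or -0.38 without C-exo replicate 3. The part of these sources in the values of the epithelial miRNAs was not tested.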

How the data were processed

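The authors sequenced small RNA libraries from plasma exosomes on an Illumina HiSeq platform and deposited 1 table of raw counts, with 763 mature rat miRNAs as rows and the 6 libraries as columns, without normalization or pooling. The submitters' processing notes name bcl2fastq, BWA and the build rn6. The miRNA database and the rule for reads that match several miRNAs are not given in the sources used here. No molecular identifiers are described, so that intervals from counting would not cover PCR.

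Tests on the counts used edgeR 4.0.16 in R 4.3.3 (filterByExpr with a minimum count of 10 and a minimum total of 15, TMM, glmQLFit and glmQLFTest with group as the only term, Benjamini-Hochberg adjustment over all tested miRNAs). A call was more than a 2-fold difference at an unadjusted p under 0.05, the study's criterion. Single values were compared by exact two-sided permutation of the libraries (scipy 1.17.1, Python 3.11.15). Ratios were formed within libraries after adding 0.5 count. Since separate animals are not stated, p-values measure only the spread between these libraries. The alternatives were RLE, RPM and upper quartile scaling, other filters (none, or 10 counts in every library), DESeq2 1.42.0, limma-voom (limma 3.58.1), each library left out in turn and a replicate block. The edgeR fit was also run on simulated counts, with planted changes larger than those of the members in the 6 libraries. That run does not show what the fit can detect among the members. No libraries differed by as little as sampling noise.

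The members and lists were chosen with earlier results of these data known. The text names all members, their other arms, the 3 most abundant other epithelial miRNAs (none of that list was called, and its other 6 tested miRNAs were added after their values had been seen), the 5 miRNAs nearest in profile to miR-203a-3p and the 3 nearest to the family, and the members of the marker lists. Sequences and positions are from RefSeq (GRCr8), matched by name, and no coordinate was converted from rn6. Figures were drawn with matplotlib 3.10.9.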

Additional observations from a re-analysis of the deposited data

How the results depend on the processing

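miR-203a-3p had a log2 fold change between 1.17 and 1.36 and met the criterion in 8 of 8 alternatives with all 6 libraries, and between 1.03 and 1.45 with 1 library left out. All log2 fold changes of the 5 miR-200 family members kept their sign in every alternative, and the number of members that met the criterion was 4 with limma-voom (of 27 miRNAs called higher), 2 with DESeq2 (of 17) and with library size only (of 18), 1 in the other alternatives with all 6 libraries, and between 0 and 6 with 1 library left out, the highest without C-exo replicate 3. Leaving out 1 library gave miR-205 between -0.0083 and 0.61, miR-200a-5p between -0.12 and 0.68, miR-200b-5p between -0.22 and 0.38, and miR-203b-3p between -0.34 and 0.41. The log2 fold change of miR-203b-3p was also above 0 with RLE size factors (0.046), library size only (0.13), DESeq2 (0.045), limma-voom (0.094) and the replicate block (0.097). The difference in log2 ratio of miR-203a-3p to the family was between -0.29 and 0.33 with 1 library left out. The 5 ratios and the added one moved by less than 1 SD pooled over the groups in every alternative. With 3 libraries a group, leaving out 1 library cannot move them further, and the replicate block leaves the mean difference unchanged. That bound is therefore no test of these settings. The seed group ratio changed sign without C-exo replicate 1 and the cluster ratio without C-exo replicate 2 (0.030). The alternatives for miR-203b-3p, the 5p arms the ratio of miR-203a-3p to miR-203b-3p and the summed family were added after the data had been seen.

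The number of called miRNAs was 38 (8 higher and 30 lower in R-exo), 63 without the filter, where 598 miRNAs were tested, and between 15 and 182 with 1 library left out, the highest without C-exo replicate 3 and the lowest without C-exo replicate 1 or R-exo replicate 3. It was 18 without C-exo replicate 2 and 16 without R-exo replicate 2. Of the calls, 21.1% were higher in R-exo with TMM, 32.4% with RLE and 54.5% with library size only. Libraries that share a replicate number correlated at 0.33, -0.28 and 0.28 in their deviations from the group means. The mean was 0.11 for the same number and -0.066 for different numbers, and 1 of 3 numbers matched best with itself. With only 3 numbers, these values cannot decide whether the numbers pair the libraries. The replicate block gave 38 calls, 25 of them higher in R-exo and 18 shared with the fit without the block, and 1 member was called in each. The cause of these shifts was not tested. With 3 libraries a group, the exact permutation test cannot go below 0.1, and the SE of the members' log2 fold changes limits what can be detected.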
